A study of Mus musculus with 4 samples.

Results

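The results below describe 9 genes of the extracellular matrix and its signals, Postn, Cilp, Comp, Cthrc1, Sfrp1, Sfrp2, Mfap4, Thbs4 and Ptn, out of 30905 genes counted in single cells of transplanted mouse hearts. They were taken by symbol and had been chosen by their measured levels in fibroblasts of these same libraries, so their levels here are a description and carry no test. The study profiled 4 heart grafts by droplet RNA sequencing from the 3′ end of transcripts (10x Genomics), in which each molecule carries a unique molecular identifier (UMI). Recipients were male C57BL/6J mice of 8 to 10 weeks, and each received a donor heart in the abdomen with its own heart left in place. In the 2 allogeneic grafts the donor was Balb/C, in the 2 syngeneic grafts it was C57BL/6J, and all grafts were taken on day 5. The labels name no drug or transgene. The deposited counts form 1 merged matrix, and the suffix of each barcode, from 1 to 4, tells which of 4 libraries a cell came from. No source used here pairs a suffix with a graft, so the matrix was treated as 1 sample, allogeneic and syngeneic grafts were not compared, and the value in each library is given.

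Fibroblasts are the matrix-making cells of the heart. After injury they leave a resting state, divide, and secrete collagens together with matricellular proteins, which bind the matrix and cell-surface receptors and modify signals without being main structural elements. Periostin (Postn) binds integrins and collagen and is a widely used marker of activated cardiac fibroblasts, and the thrombospondins Comp and Thbs4 also bind collagens and integrins. Cartilage intermediate layer protein (Cilp) is known as a matrix antagonist of TGF-beta, Mfap4 associates with elastic fibres, Cthrc1 is a secreted protein known from injured arteries, Sfrp1 and Sfrp2 bind Wnt ligands, and pleiotrophin (Ptn) is a heparin-binding growth factor.

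The 4 libraries held 53824 cells and between 96020294 and 166079145 UMIs each, with medians of 4759 to 9784 UMIs per cell, and 308 barcode sequences occurred in more than 1 library. After filters 42395 cells were kept, from 9358 to 12496 per library. They were clustered without the 9 genes and without any gene of the lists set beside them below. Clusters were named from marker genes, which could take part in the clustering unless they were also on those lists. The fibroblast-like class held 6195 cells (14.61%), with 2388 in library 1, 830 in library 2, 2589 in library 3 and 388 in library 4. All 10 fibroblast markers, Dcn, Col1a1, Pdgfra and Tcf21 among them, were found in at least 10 percent of these cells. The libraries stood apart within the class. Nearly all fibroblast-like cells of libraries 1 and 3 lay in 2 shared clusters, whereas 806 of those of library 2 lay in a cluster led by Prg4, Cxcl5 and Ptx3 and 384 of those of library 4 in a cluster led by Timp1, Cxcl14 and Rarres2. For libraries 2 and 4 a difference from the other libraries therefore cannot be told apart from a difference between clusters. A further cluster of 1017 cells, all from library 2, stayed unnamed and outside the class. Its leading genes included Cxcl5 and Prg4. Dcn stood there at 1292 CPM, with a UMI in 88.1% of the cells, and Postn at 95.99 CPM. Whether these are fibroblasts was not tested, and the library 2 values depend on that naming.

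The bases upstream of the start sites of the 9 genes were searched for short motifs. Whether such motifs bear on the levels of the genes was not tested. RefSeq (build GRCm38.p6) gave promoter entries for 5 of the 9 members, Postn (2 start sites), Cilp, Sfrp2, Thbs4 and Ptn. The 250 bases before the start are shown for the 4 genes whose entry lies at the outer end of the gene as annotated, each 5′ to 3′ on its own strand, with motif matches in capitals. They are chr3:54360857-54361106 (plus strand), chr9:65264930-65265179 (plus), chr3:83766071-83766320 (plus) and chr13:92794819-92795068 (minus).
Postn: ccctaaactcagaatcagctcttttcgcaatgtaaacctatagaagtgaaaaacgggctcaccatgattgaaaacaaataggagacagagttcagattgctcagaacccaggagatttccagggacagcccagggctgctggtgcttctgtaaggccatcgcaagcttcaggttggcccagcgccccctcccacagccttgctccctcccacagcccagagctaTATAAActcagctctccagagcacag
Cilp: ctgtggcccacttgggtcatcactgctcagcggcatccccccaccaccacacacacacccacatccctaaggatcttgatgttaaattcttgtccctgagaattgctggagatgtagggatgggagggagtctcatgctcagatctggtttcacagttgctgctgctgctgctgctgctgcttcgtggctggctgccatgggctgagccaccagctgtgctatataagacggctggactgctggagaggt
Sfrp2: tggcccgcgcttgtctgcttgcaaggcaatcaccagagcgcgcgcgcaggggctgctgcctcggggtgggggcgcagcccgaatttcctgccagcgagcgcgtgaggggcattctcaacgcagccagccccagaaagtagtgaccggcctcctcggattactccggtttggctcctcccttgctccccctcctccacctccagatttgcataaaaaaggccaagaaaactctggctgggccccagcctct
Thbs4: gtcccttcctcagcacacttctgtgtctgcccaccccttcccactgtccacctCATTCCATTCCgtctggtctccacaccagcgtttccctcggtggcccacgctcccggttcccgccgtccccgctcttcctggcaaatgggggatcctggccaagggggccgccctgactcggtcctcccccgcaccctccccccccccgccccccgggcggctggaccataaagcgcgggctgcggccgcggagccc
The motifs searched on both strands were the TATA box (TATAAA), the AP-1 motif (TGANTCA), the TEAD motif (GGAATG) and the TCF/LEF motif (CTTTGAT). Among the 32851 windows of the same length, 12.4% held the TATA box, 6.75% the AP-1, 12.6% the TEAD and 3.21% the TCF/LEF letters. Postn held TATAAA at position -26 counted back from the start site. Thbs4 held the TEAD letters on the opposite strand (CATTCC) at positions -197 and -192, 2 matches that share 1 base. The windows of Cilp, Sfrp2, Ptn and the other start site of Postn held none of these letters. Only these exact letters were searched, so a window without them may still hold a variant of a motif. The 4 windows shown differ in base composition, with G and C making up 52% (Postn), 56% (Cilp), 63.6% (Sfrp2) and 70.8% (Thbs4) of the bases against a median of 52.4% over all windows.

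All 9 genes had their highest level in fibroblast-like cells, over all libraries and within each among classes with at least 50 cells there. Levels are given as counts per 1000000 UMIs of the cells (CPM), mitochondrial genes having been removed, with 95% exact Poisson intervals that cover counting error only. They are compared within a gene and not between genes, because 3′ counts are not scaled to a gene's length. Of the UMIs of each gene in kept cells, between 93.91% (Postn) and 97.73% (Cilp) lay in the fibroblast-like class, which made up 14.61% of the cells. Against all other named cells, and with 10 CPM added to both levels, the folds ran from 21.19 (Thbs4) to 56.83 (Mfap4) with a median of 30.5, where the median over all genes was 0.9902. All 9 passed a 10-fold limit, which 0.769% of 15341 genes passed, but this is the pattern for which the genes were picked. Without library 3 the median fold was 18.11 and 6 of 9 members passed. The share of all genes that passed without library 3 is not given here. Whether the drop is particular to the members was therefore not tested.

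**Figure D1:**
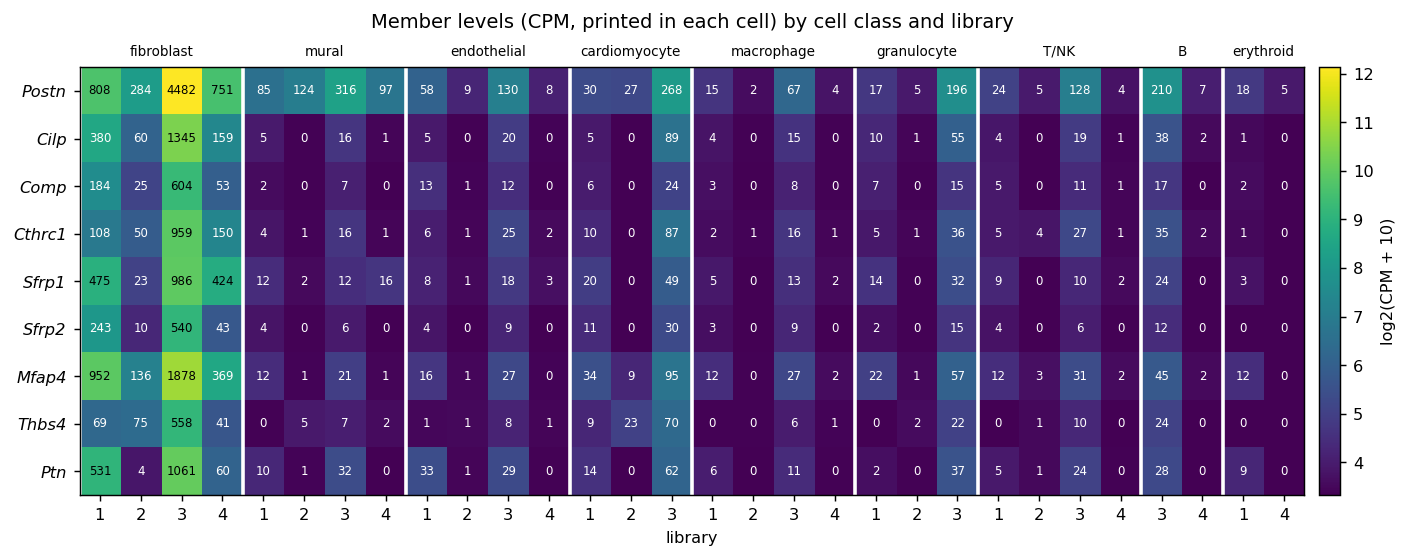
Level of each gene (rows) in CPM, printed in each cell and coloured on a log2(CPM + 10) scale, in each cell class and library (columns) with at least 50 cells. Within each library the fibroblast-like column has the highest level of every gene, from 4482 CPM of Postn in library 3 down to 4.454 CPM of Ptn in library 2.

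Within single libraries the same folds were uneven. In library 3 all 9 members passed the 10-fold limit, against 0.748% of all genes, with folds from 29.41 (Postn) to 50.64 (Mfap4). In library 1 it was passed by 7 of 9 members, against 0.881% of genes, the others being Cthrc1 (7.681-fold) and Thbs4 (7.068-fold). In library 4 the count was 5 of 9, against 1.26% of genes, from Postn at 51.32-fold to Thbs4 at 4.723-fold. In library 2 Mfap4 alone passed, at 13.38-fold, against 0.451% of genes, and Ptn stood at 1.374-fold. Mfap4 was thus the only member past the limit in each of the 4 libraries.

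Periostin was the member with the widest reach outside fibroblasts. Its gene (ENSMUSG00000027750) lies on chromosome 3 at 54361109-54391037 on the plus strand (GRCm38), and its product links collagen, other matrix proteins and integrins. Postn stood at 2146 CPM (interval 2137 to 2155) in fibroblast-like cells and at 177.8 CPM (172.8 to 182.9) in mural cells, the pericytes and smooth muscle cells of vessel walls. These levels are pooled over libraries, as are the classes named as next in order for the other members, and an order of classes pooled in this way mixes libraries: 5912 of 8431 macrophages and 1409 of 1870 T/NK cells, but 388 of 6195 fibroblast-like cells, came from library 4. In library 3 alone Postn stood at 316.1 CPM in mural cells, 267.9 CPM in cardiomyocytes, 210 CPM in B cells, 195.8 CPM in granulocytes, 130.1 CPM in endothelial cells, 127.9 CPM in T/NK cells and 66.89 CPM in macrophages. In library 4 B cells held 6.871 CPM.

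T/NK cells were set beside the fibroblast-like cells on the assumption that they do not make matrix. Whether their Postn is background RNA was not tested, and other immune classes of library 3 held other levels. With each cell thinned to 1000 UMIs, a Postn UMI was found in 74.29% of fibroblast-like and 15.13% of T/NK cells of library 3 (91.62% and 48.76% unthinned, at median depths of 15092 and 5494 UMIs). In library 1 the thinned shares were 22.27% and 4.046% (45.35% and 15.43% unthinned, at median depths of 11167.5 and 6758 UMIs). In library 2 they were 14.55% and 1.258% (44.22% and 2.424% unthinned, at 24694.5 and 4315 UMIs), and in library 4 37.73% and 0.6466% (83.51% and 5.465% unthinned, at 36705 and 11273 UMIs). The T/NK share of Postn was thus highest in the library with the highest fibroblast-like level, and the fibroblast-like share was above it in each library.

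By library, Postn in fibroblast-like cells stood at 807.8 CPM in library 1, 283.9 CPM in library 2, 4482 CPM in library 3 and 751 CPM in library 4. Library 3 was highest by a wide margin, libraries 1 and 4 lay close together, and library 2 was lowest. None of the 4 intervals overlapped that of the neighbour, those of libraries 1 and 4 being 797.4 to 818.2 and 736.8 to 765.4 CPM.

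Comp and Thbs4 are thrombospondins, pentameric calcium-binding proteins of cartilage, tendon and injured muscle. Comp (ENSMUSG00000031849, chromosome 8, 70373558-70382066, plus strand) stood at 300.8 CPM in fibroblast-like cells, and in cardiomyocytes (8.019 CPM, 4.828 to 12.52) and endothelial cells (7.645 CPM, 7.137 to 8.18), next in order, the intervals overlapped. In fibroblast-like cells of libraries 1, 2, 3 and 4 Comp stood at 184.4, 24.62, 604.4 and 52.85 CPM. Library 3 was thus highest and library 2 lowest, the order also seen for Postn except that library 1 lay further above library 4.

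Thbs4 (ENSMUSG00000021702, chromosome 13, 92751590-92794818, minus strand) was present in the fewest cells. A Thbs4 UMI was found in 9.738% of fibroblast-like cells thinned to 1000 UMIs. In library 3 the share was 20.03% in fibroblast-like and 0.8403% in T/NK cells (40.98% and 5.785% unthinned). Its level was 259.2 CPM in fibroblast-like cells and 33.76 CPM (26.77 to 42.02) in cardiomyocytes, the narrowest gap between the first and second class of any member. Thbs4 was the member for which library 2 was not the lowest: fibroblast-like cells of libraries 1, 2, 3 and 4 held 68.79, 74.76, 557.8 and 41.12 CPM. Libraries 1 (65.8 to 71.89) and 2 (71.1 to 78.57) overlapped in their intervals, and library 3 stood more than 7-fold above both.

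Cilp (ENSMUSG00000042254, chromosome 9, 65265180-65280605, plus strand), a secreted protein of cartilage and of injured heart, had the largest share of its UMIs in fibroblast-like cells. It stood at 667.5 CPM there and at 17.73 CPM (12.78 to 23.96) in cardiomyocytes and 15.14 CPM (9.374 to 23.15) in B cells, which did not differ beyond counting error. Fibroblast-like cells of libraries 1, 2, 3 and 4 held 379.6, 59.82, 1345 and 159.1 CPM. All 4 libraries were apart in their intervals, in the order 3, 1, 4, 2.

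Mfap4 and Cthrc1 are secreted proteins that sit with fibres of the matrix or act beside it. Mfap4 (ENSMUSG00000042436, chromosome 11, 61485431-61488900, plus strand) was found in about as many thinned fibroblast-like cells as Postn, 44.2%, and stood at 1078 CPM, with cardiomyocytes next at 40.09 CPM (32.44 to 49.01). Its fibroblast-like levels in libraries 1, 2, 3 and 4 were 952.2, 136.4, 1878 and 368.8 CPM, so that library 3 stood less than 2-fold above library 1, as it did for Ptn.

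Cthrc1 (ENSMUSG00000054196, chromosome 15, 39076932-39087121, plus strand), whose name refers to its collagen triple helix repeat, stood at 437.8 CPM in fibroblast-like cells and at 20.68 CPM (15.3 to 27.34) in cardiomyocytes. In fibroblast-like cells it held 108 CPM in library 1, 49.71 in library 2, 958.9 in library 3 and 150.1 in library 4. Here library 4 lay above library 1, the reverse of their order for the other 8 members, and library 3 stood far from all others.

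Sfrp1 and Sfrp2 carry a frizzled-like domain that binds Wnt proteins in the extracellular space. Sfrp1 (ENSMUSG00000031548, chromosome 8, 23411502-23449632, plus strand) stood at 580.2 CPM in fibroblast-like cells and at 21.95 CPM (16.39 to 28.78) in cardiomyocytes, and it had a UMI in more unthinned fibroblast-like cells than any other member, 71.8%. Its levels in libraries 1, 2, 3 and 4 were 474.7, 23.23, 985.7 and 424.1 CPM. Library 4 was close to library 1 for this gene, and library 2 stood apart from the other 3.

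Sfrp2 (ENSMUSG00000027996, chromosome 3, 83766321-83774316, plus strand) stood at 287.5 CPM in fibroblast-like cells and at 12.66 CPM (8.543 to 18.08) in cardiomyocytes. Across libraries 1, 2, 3 and 4 it held 243.3, 9.675, 540.5 and 43.45 CPM. In contrast to Sfrp1, library 4 was far below library 1, so that the pair of Wnt-binding genes parted in that library.

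Ptn (ENSMUSG00000029838, chromosome 6, 36714929-36810220, minus strand), a growth factor that binds heparan sulfate and receptor phosphatases, showed the widest range between libraries. It stood at 572.6 CPM in fibroblast-like cells, with cardiomyocytes (19.84 CPM, 14.58 to 26.38) and endothelial cells (18.68 CPM, 17.88 to 19.51) next and overlapping. Its fibroblast-like levels were 530.9 CPM in library 1, 4.454 CPM (3.595 to 5.457) in library 2, 1061 CPM in library 3 and 59.71 CPM in library 4. The 830 fibroblast-like cells of library 2 yielded 93 Ptn UMIs in all, in 46 cells.

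**Figure D2:**
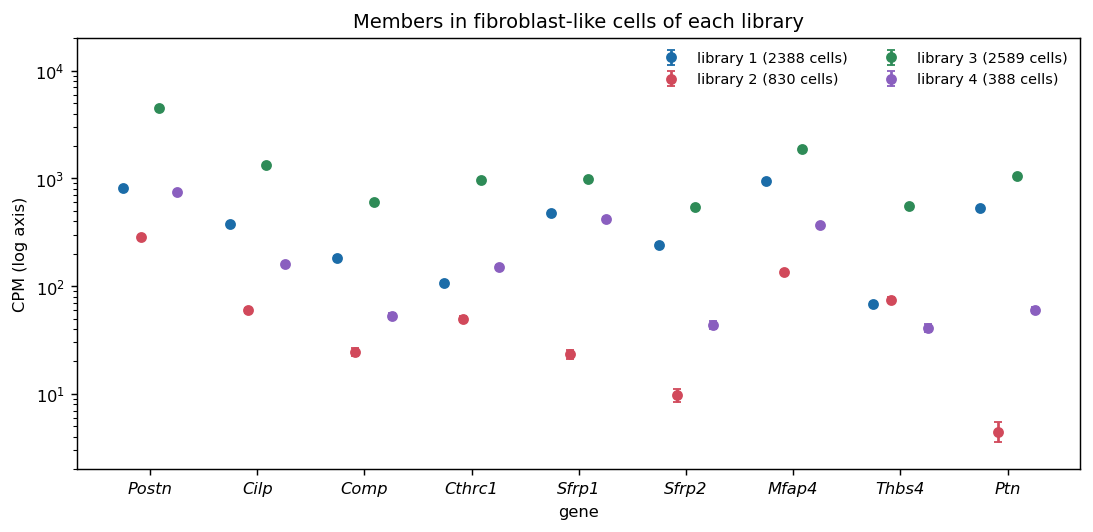
Level in CPM (log axis) of each gene in the fibroblast-like cells of libraries 1 to 4, with 95% exact Poisson intervals as bars, mostly smaller than the points. Library 3 is highest for all 9 genes, library 2 is lowest for all but Thbs4, and the spread is widest for Ptn.

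Across the 9 genes the highest library stood from 11.11-fold (Thbs4) to 74.09-fold (Ptn) above the lowest, with a median of 17.75, where the median of all genes was 1.519. All 9 were at least 4-fold apart, as were 5.74% of 12982 genes. The count was 6 of 9 without library 3, and 8 without library 2. The matching shares of all genes are not given here, so these 2 counts are a description only. Some fibroblast markers had the same extremes and others did not. Col1a1 in fibroblast-like cells stood at 5363, 326.4, 8411 and 5591 CPM in libraries 1 to 4. It was thus also highest in library 3 and lowest in library 2, with library 4 near library 1. Col1a2, Col3a1 and Bgn had the same highest and lowest library. Dcn, a small proteoglycan, stood at 20586.5, 6769, 10032.4 and 5389 CPM and was highest in library 1. So were Pdgfra, Lum, Dpt, Tcf21 and Gsn.

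Genes of other cells also differed between libraries in the fibroblast-like cells, and their part in the differences was not tested. The summed level of the 11 macrophage markers in fibroblast-like cells was 206.6, 84.77, 352.8 and 2174 CPM in libraries 1 to 4, and all 11 were found in at least 10 percent of the cells in library 4. The 8 granulocyte markers summed to 337.7, 730.1, 98.99 and 58.43 CPM, highest in library 2. The 8 endothelial markers summed to 174, 164.4, 262.6 and 85.5 CPM. The 7 erythroid markers, genes of red cells, summed to 2247, 281.8, 196.8 and 15.76 CPM, and 2 of the 7 were at 0 in each of libraries 2, 3 and 4. The 8 smooth muscle markers, some of which activated fibroblasts also express, summed to 228.5, 138.1, 907.7 and 944.2 CPM, higher in libraries 3 and 4 than in the others. No marker of the macrophage, granulocyte, endothelial and smooth muscle lists was at 0 in any library, and the sums of all 5 lists were below that of the 10 fibroblast markers, which summed to 71048.5, 17900.7, 56180.2 and 33072 CPM.

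Depth also differed between libraries, with medians of 11167.5, 24694.5, 15092 and 36705 UMIs per fibroblast-like cell. With each cell thinned to 3000 UMIs, a Postn UMI was found in 33.64% of fibroblast-like cells of library 1, 26.28% of library 2, 86.05% of library 3 and 62.27% of library 4. A Ptn UMI was found in 31.2%, 1.786%, 56.95% and 10.29% of them. Library 3 thus remained highest in both, while for Postn library 4 now lay well above library 1, although their CPM were close: library 1 had fewer cells with Postn and more of it in each.

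Genes that mark resting and activated fibroblasts were set beside the members. In fibroblast-like cells 12 of 14 activated-fibroblast genes were highest in library 3, against 3105 of 12982 genes tested. They included Ddah1 (28.45, 5.891, 478.5 and 39.99 CPM in libraries 1 to 4) and Fn1 (710.3, 84.82, 2356 and 1493 CPM). Acta2, the smooth muscle actin of contractile myofibroblasts, was highest in library 4 (436.1 CPM, against 290.4 in library 3). Of 12 resting-fibroblast genes 10 were highest in library 1, against 4498 of 12982 genes tested, led by Clec3b (716.6, 50.19, 130.2 and 8.62 CPM). Their median fold between the highest and lowest library was 5.901 for the activated and 8.158 for the resting genes, against 17.75 for the members.

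Relatives of the members did not share their pattern as a group. Of 9 paralogs 6 were highest in fibroblast-like cells and 3 were 10-fold higher there, against 0.769% of 15341 genes. The share of all genes that were highest in these cells is not given here, for this list or those below. Counts of genes highest there are therefore a description only. Tgfbi, the paralog of Postn, was highest in macrophages (1411 CPM, against 107.1 CPM in fibroblast-like cells), and Thbs1 in granulocytes (3315 CPM, against 798.2 CPM). Mdk, the relative of Ptn, was highest in fibroblast-like cells (186.6 CPM), and there it stood at 236.6, 14.66, 292.7 and 26 CPM in libraries 1 to 4. That is the order of libraries found for Ptn, with a narrower range of 12.28-fold.

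Of 20 other matricellular genes 17 were highest in fibroblast-like cells and 10 were at least 10-fold higher there, against 0.769% of 15341 genes. Within these cells 13 of the 20 were at least 4-fold apart between libraries and 11 were highest in library 3, against 3105 of 12982 genes tested. Aspn (267, 32.18, 757.6 and 38.23 CPM) and Fmod (79.95, 2.634, 251.1 and 5.865 CPM), small proteoglycans of collagen fibres, followed the members' order. Tnc, a matricellular protein of wounds, did not: it was highest in library 2 (17.5, 271.8, 76.67 and 253.6 CPM). Of 9 genes for matrix cross-linking and processing enzymes 8 were highest in fibroblast-like cells, and Lox stood there at 152.8, 319.1, 696.6 and 554.4 CPM.

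Receptors to which the members' proteins bind were spread over many classes. Of 16 receptor genes 7 were counted as highest in fibroblast-like cells, but this count includes Alk, which had 0 UMIs in every class. The others were Itgav, Itgb5, Itga5, Ptprs, Sdc2 and Lrp1. Of the 16 genes 1, the heparan sulfate proteoglycan Sdc2, was 10-fold higher there (274.2 CPM). Integrin genes for Postn included Itgb5, highest in fibroblast-like cells (380.3 CPM), and Itgb1, highest in mural cells (725.8 CPM). Cd36, a thrombospondin receptor, was highest in endothelial cells (2319 CPM), and Sdc4 in macrophages (471.5 CPM). For Ptn, Alk had 0 UMIs in all cells, which allows up to 0.0284 CPM in fibroblast-like cells, and Ptprz1 did not exceed 1.115 CPM in any class. Of 25 Wnt ligands, receptors and regulators 14 were highest in fibroblast-like cells and 0 passed the 10-fold limit. The Wnt inhibitor Dkk3 stood at 93.83 CPM in fibroblast-like cells with mural cells next at 5.502 CPM, and Wif1 at 18.72 CPM.

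Outside the fibroblast-like class, RNA free in the droplets gives a low level of every abundant gene. It was gauged by Dcn, Lum, Col1a1, Col1a2 and Col3a1, each as a percent of its fibroblast-like level in the same library. In mural cells of library 1 these genes stood at 0.757 to 3.71% and Postn at 10.5%, and in library 3 at 1.32 to 5.45% and Postn at 7.05%. In library 4 the range was 0.417 to 3.32% and Postn stood at 12.9%, and in library 2, where fibroblast-like levels were lowest, at 0.748 to 22.8% against 43.5% for Postn. Postn was thus above all 5 gauge genes in mural cells of each library. Within mural cells it lay in the pericyte cluster (Kcnj8, Vtn, Abcc9), at 349.5, 500.8 and 1006 CPM in libraries 1 to 3, against 42.96, 40.02 and 183 CPM in the cluster led by Myh11 and Acta2. In library 2 pericytes therefore held more Postn than fibroblast-like cells (283.9 CPM). The other 8 members had no more than 72.71 CPM in pericytes of any of these 3 libraries, the highest being Ptn in library 3. The gauge gene Col3a1 stood at 2072 CPM in pericytes of library 3, with a UMI in 96.6% of them. Whether the gauge is free RNA alone was not tested, so a level within it cannot be read as background.

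In endothelial cells of library 1 the gauge genes stood at 1.48 to 2.43%, and 4 members were above them: Postn (7.14%), Comp (6.88%), Ptn (6.18%) and Cthrc1 (5.92%). The other libraries differed from this. In library 2 the gauge ran from 1.52 to 3.35%. Ptn (17%, on 27 UMIs) and Sfrp1 (6.04%, on 50 UMIs) were above it, and Postn (3.16%), Comp (2.96%) and Cthrc1 (1.58%) within it. In library 3 it ran from 1.49 to 1.98%, with Postn (2.9%), Ptn (2.75%) and Cthrc1 (2.65%) above it and Comp at its upper end (1.99%). In library 4 Postn (1.03%), Comp (0.463%), Ptn (0.41%) and Cthrc1 (1.14%) all lay within the gauge of 0.327 to 3.15%. The median of that gauge was 0.43%, so its upper end lay far above its middle. These 4 were found in a small endothelial cluster of 806 cells led by Ccl21a, Mmrn1 and Lyve1, genes of lymphatic vessels, which also held all 6 endocardial markers. In that cluster Postn stood at 401, 62.76 and 572 CPM in libraries 1 to 3, and Ptn at 250.4, 11.54 and 161.6 CPM. Since it held markers of more than 1 class, these levels cannot be ascribed to a single cell type. In cardiomyocytes Thbs4 was above the gauge in libraries 1 (13.7% against at most 4.41%), 2 (30.6% against 4.86%) and 3 (12.6% against 8.85%). It stood there at 9.399, 22.84 and 70.36 CPM, on 16, 5 and 26 UMIs, in cells with a median depth of 1294 UMIs. Other members also passed the gauge in these cells. They were Cthrc1 in libraries 1 (9.25%) and 3 (9.03%), Sfrp2 in library 1 (4.59%), and Postn (9.65%, on 6 UMIs) and Mfap4 (6.7%, on 2 UMIs) in library 2. Immune cells passed their gauge for some members too. In T/NK cells of library 1 Cthrc1 (4.65%, on 7 UMIs), Postn (2.93%), Comp (2.72%, on 7 UMIs) and Sfrp1 (1.97%) did, against at most 1.86%. In T/NK cells of library 3 Postn and Cthrc1 both stood at 2.85%, near their endothelial percents there. A level above the gauge therefore does not show that a class makes the gene.

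**Figure D3:**
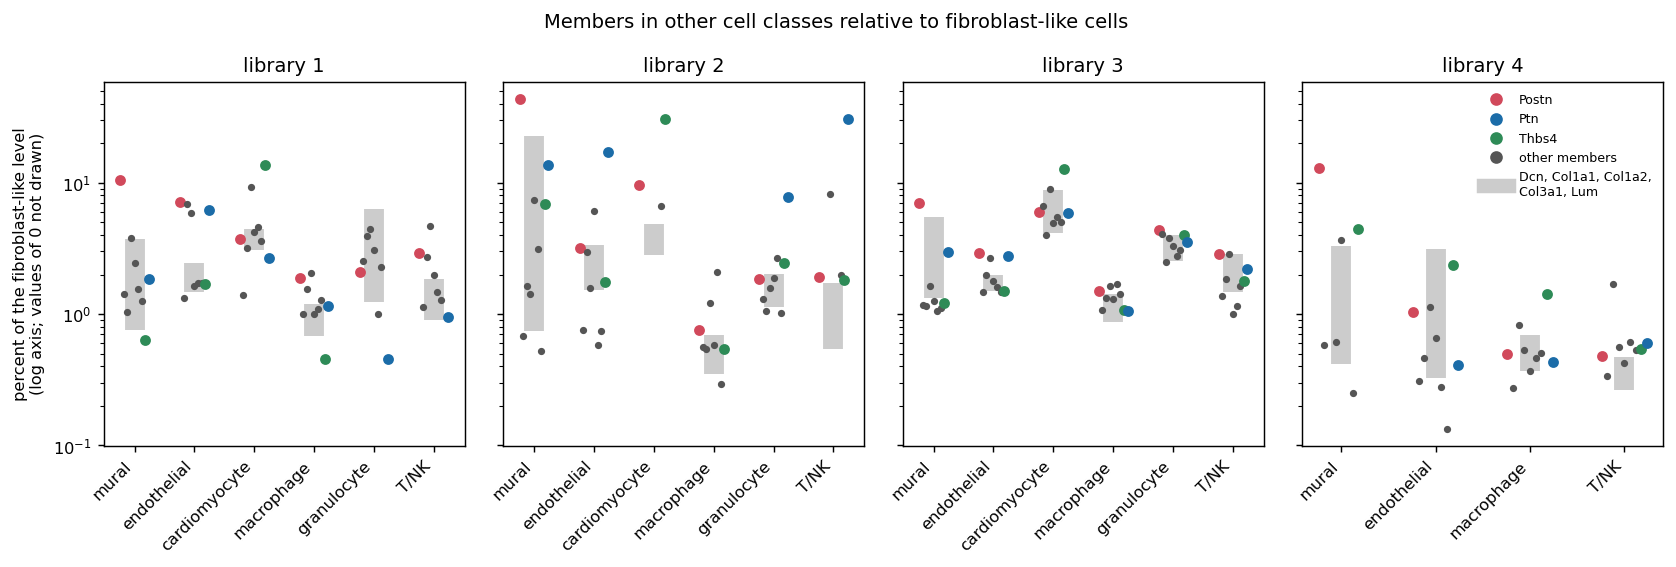
Level of each gene in other classes as a percent of its fibroblast-like level in the same library (log axis), with coloured points for Postn, Ptn and Thbs4, small grey points for the other members and grey bars for the range of Dcn, Col1a1, Col1a2, Col3a1 and Lum. Postn lies above the bar in mural cells of all 4 libraries and Thbs4 above it in cardiomyocytes of libraries 1 to 3; most other points lie in or near the bars.

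Fibroblast-like cells were clustered again into 13 subclusters, still without the members and listed genes. A pair of subclusters held the highest level of most members. Subcluster 2 (811 cells, led by Ddah1, Cthrc1 and C1qtnf3) held 6205 CPM of Postn, 1344 of Cthrc1 and 852 of Thbs4. Subcluster 4 (640 cells, led by Ddah1, Col8a1 and Rflnb) held 5197, 1061 and 650 CPM of the same genes. At the other end subcluster 1 (1267 cells, led by Gsta3, Zbtb16 and Inmt) held 364.8 CPM of Postn, and subcluster 6 (506 cells, led by Inmt, Gsta3 and Clec3b) 142.7 CPM. Of the cells of subclusters 2 and 4 most came from library 3 (703 and 600 cells) and few from library 1 (108 and 39), and the reverse held for subclusters 1 and 6 (1045 and 450 cells from library 1, 220 and 56 from library 3).

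The comparison of these 4 subclusters was therefore made within each library, and it was chosen after the values were seen. In library 1 (147 cells in subclusters 2 and 4) Postn stood at 3246 CPM in subclusters 2 and 4 and at 238.9 CPM in 1 and 6, and in library 3 (1303 cells) at 5914 and 701.6 CPM. Cthrc1 differed most, at 467.9 against 11.04 CPM in library 1 and 1267 against 33.94 CPM in library 3. Thbs4 stood at 536.1 against 26.23 CPM and at 764.7 against 32.27 CPM. Sfrp1 and Mfap4 differed least: 853.1 against 347.9 CPM and 1591 against 541.3 CPM in library 1, and 1142 against 552.7 CPM and 2053 against 1167 CPM in library 3.

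These subclusters had been picked by their member levels, so the member counts that follow largely result from that choice. With 10 CPM added, all 9 members were at least 2-fold higher in subclusters 2 and 4 in library 1, where 2.56% of 10043 genes were higher and 2.96% lower. In library 3 the count was 8 of 9, with Mfap4 at 1.753-fold, where 1.80% of 10702 genes were higher and 2.19% lower, and no member was 2-fold lower in either library. The median member fold was 6.871 in library 1 and 4.733 in library 3, against 1.028 and 1.009 for all genes. Of the activated-fibroblast genes 12 of 13 tested were 2-fold higher in library 1 and 10 of 13 in library 3. Of the resting-fibroblast genes 9 of 11 and 8 of 11 were 2-fold lower. Ddah1 and Clec3b, which are on these 2 lists, are leading genes of some of these subclusters. The lists were also chosen with earlier results of these data known. Their counts are thus not independent of the choice of subclusters. Wnt ligands and receptors moved little, with 2 of 18 and 0 of 18 higher and 0 lower in both.

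Other subclusters held single members at a high level. Subcluster 5 (538 cells, led by Cpz, Gucy1a1 and Lgi2) had the highest level of Sfrp2 (917.2 CPM) and Mfap4 (2424 CPM) and nearly no Thbs4 (5.987 CPM), and the split was seen in both libraries: Thbs4 stood at 0.3458 CPM in library 1 and 13.68 CPM in library 3, and Sfrp2 at 765.2 and 1125 CPM. Subcluster 10 (304 cells, led by Ptgds, Cytl1 and Wif1) had the highest level of Comp, 2061 CPM, with 1070 CPM in library 1 and 3359 CPM in library 3. It also held Chad (301.8 CPM), another gene known from cartilage, while Postn stood at 907 CPM. High Comp was thus found apart from the highest Postn.

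Subcluster 3 (791 cells, 790 from library 2, led by Cxcl5, Cxcl3 and Prg4) held the lowest Ptn, 3.699 CPM, beside 74.77 CPM of Thbs4 and 279.5 CPM of Tnc. Subcluster 9 (339 cells, 337 from library 4, led by the interferon-inducible Gbp2b) held 472.7 CPM of Sfrp1 and 795 CPM of Postn. Dividing cells formed subcluster 11 (72 cells, 61 from library 3, Mki67 at 543.6 CPM), in which Postn stood at 3668 CPM and Thbs4 at 749.3 CPM. Subcluster 12, 46 cells led by Msln, Slpi and Upk3b, genes of the mesothelium, held 14.94 CPM of Postn but 154.4 CPM of Ptn and 125 CPM of Sfrp2. Subclusters 7, 8 and 13 carried genes of endothelial cells (Cdh5, Emcn), red cells (Hbb-bs, Hba-a1) or macrophages (Fcer1g, Ctss). Subclusters that come from a single library cannot be told apart from that library.

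**Figure D4:**
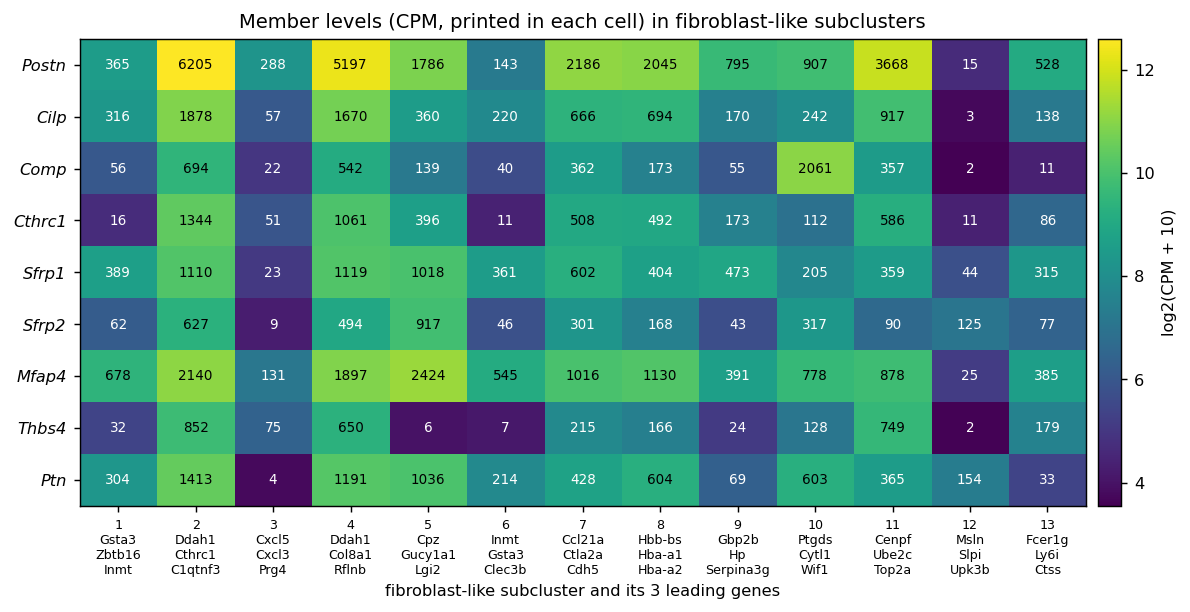
Level of each gene (rows) in CPM, printed in each cell and coloured on a log2(CPM + 10) scale, in the 13 fibroblast-like subclusters (columns, with their 3 leading genes). Subclusters 2 and 4 are bright for all 9 genes, subcluster 5 is bright for Sfrp2 and Mfap4 but dark for Thbs4, subcluster 10 is brightest for Comp, and subclusters 3 and 12 are dark for most.

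The members were also found together in the same cells. Each fibroblast-like cell was thinned to 3000 UMIs, which left 2093, 784, 2172 and 379 cells in libraries 1 to 4 and left out 295, 46, 417 and 9 shallower cells. The median number of members with a UMI per cell was 2, 1, 5 and 2. No member was found in 16.34, 48.47, 1.796 and 13.98% of cells, and 7 or more in 2.389, 0, 28.27 and 1.055% (0 of 784 cells in library 2, which allows a share of up to 0.383%). All 9 were found in 2 cells of library 1 and 87 cells of library 3.

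For each ordered pair of members the share of cells with the second gene was compared between cells with and without the first. In library 3 it was higher with the first gene in 72 of 72 pairs, with a median difference of 19.2 percentage points, and in library 1 in 66 of 72 pairs, with a median of 14.11. In library 4 the count was 50 of 64 pairs (median 6.484) and in library 2 40 of 56 pairs (median 1.784), pairs with fewer than 20 cells in either group being left out. Pairs of other fibroblast genes were not counted in this way, so whether these counts set the members apart was not tested. In library 1, 21.16% of cells with Postn had a Cthrc1 UMI (18.2 to 24.37, exact binomial interval) against 2.376% of cells without (1.641 to 3.32). In library 3 these shares were 55.38% and 11.22%, and in library 4 31.78% and 7.692%. In library 2 they were 8.738% and 8.997%, with overlapping intervals, so that this pair was not found together there.

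Thbs4 and Cilp were the closest pair in library 1, where 90.36% of cells with Thbs4 had Cilp against 21.84% of cells without, and in library 3 the shares were 90.76% and 59.43%. In library 2 the same pair stood at 60.53% against 6.3%, on 38 cells with Thbs4. Thbs4 and Sfrp1 were not found together more than apart: Sfrp1 was in 46.99% (35.93 to 58.26) of cells with Thbs4 and 55.02% without in library 1, and in 67.96% and 66.69% in library 3. Clec3b, a resting-fibroblast gene, showed the opposite relation to most members. In library 1 it was found in 52.41% of cells with Postn and 77.83% of cells without, and in library 3 in 15.68% and 60.4%. Cells of 1 library share a source, and these shares describe the libraries only.

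**Figure D5:**
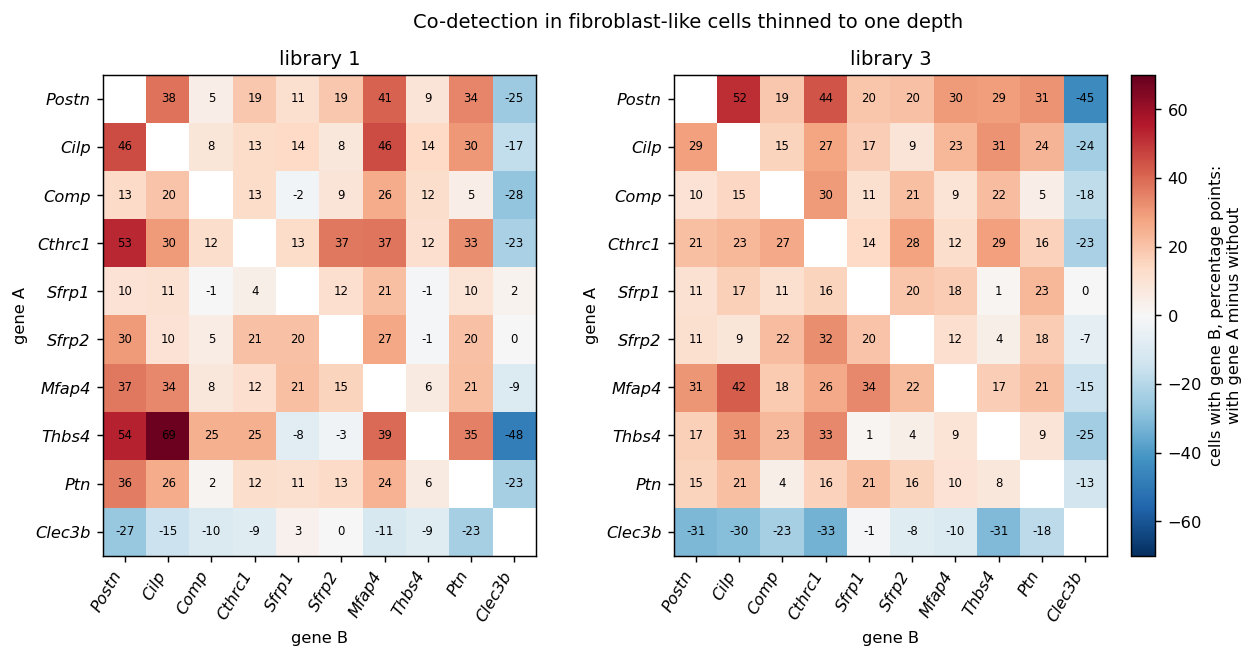
Difference, in percentage points, in the share of fibroblast-like cells with gene B (columns) between cells with and without gene A (rows), after thinning to 3000 UMIs, in library 1 (left) and library 3 (right). Red cells mark pairs found together: nearly all pairs of members are red, Thbs4 with Sfrp1 is near 0, and Clec3b is blue with most members.

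Over 30 groups of cells (class by library, at least 50 cells), the genes whose levels were most like those of a member were looked up among 12987 genes, the 9 members not being eligible, by Pearson's correlation of log2(CPM + 10). The groups share libraries, depth and free RNA, so the values are a description. Between members the correlation ran from 0.813 (Thbs4 with Ptn) to 0.981 (Comp with Sfrp2, and Cilp with Cthrc1). Itgbl1, an integrin-like secreted protein, was the nearest gene outside the 9 for Cilp (0.975) and Comp (0.982). The nearest such gene of Postn was the collagen gene Col5a2 (0.963), that of Cthrc1 the matrix protein gene Ltbp2 (0.963), that of Sfrp1 Fndc1 (0.983) and that of Sfrp2 Gxylt2 (0.978). For Mfap4 it was Serpinf1 (0.975), for Thbs4 the oxidase gene Nox4 (0.944) and for Ptn the fibre protein Mfap2 (0.948).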

How the data were processed

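Counts of UMIs per gene and cell, made by the authors with Cell Ranger 3.0.0 (mm10, Ensembl 92) and deposited unnormalized in 1 merged matrix, were analysed with scikit-learn 1.9.0, leidenalg 0.10.2, igraph 0.11.9, scipy 1.17.1, pandas 2.3.3 and numpy 2.4.6 under Python 3.11.15, and drawn with matplotlib 3.10.9. Cells with over 200 genes and under 20% mitochondrial UMIs were kept, mitochondrial genes were removed, and the 5% of cells of each library most like simulated doublets were left out. Log-scaled counts of 2000 variable genes, without the 9 genes and all listed genes, were reduced to 10 principal components and clustered (30 neighbours, Leiden resolution 0.8, subclusters 0.5, seed 20).

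A marker counted where at least 10 percent of a cluster's cells held it at 2-fold the other clusters. A cluster was named from 3 or more markers. After the data were seen, 50 percent of the list was also required, pericytes and smooth muscle cells were merged as mural, and lymphatic and endocardial cells were merged with endothelial. A cluster also stayed unnamed where markers of another class led. The same held where its depth was low for its libraries and no marker of its class was among its leading genes. Unnamed clusters stayed out of the classes.

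Folds add 10 CPM to both levels and take genes with at least 100 UMIs. Thinning draws UMIs without replacement. Zero counts allow up to 3 counts. Genes named are the 9, list genes, 5 most alike per member (at least 500 UMIs) and 10 leading genes per subcluster. The 9 genes and lists were chosen with earlier results of these data known. Folds within libraries, the subcluster comparison and 2 alternatives were chosen after the values were seen. The scripts were tested on simulated data. With 1 sample there is no test. Depth per library is in the text, and intervals cover counting error only.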

Additional observations from a re-analysis of the deposited data

How the results depend on the processing

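No paired analysis was possible because the columns carry no graft or replicate number and no test was made. All 9 genes had their highest level in fibroblast-like cells under most settings. The exceptions were 8 of 9 with a resolution of 1.6, with 20 principal components and with at least 500 genes per cell, where Ptn was highest in Schwann-like cells (1165, 674.3 and 766.3 CPM), and 7 of 9 when each cell was named from its own markers, where Postn (2403 CPM) and Ptn (1039 CPM) were highest in 86 Schwann-like cells. Library 3 held the highest level of all 9 under every setting that kept it. The median member fold, 30.5, was 18.12 with doublets kept, 45.83 with listed genes among the variable genes, 70.33 with 1 CPM added, and from 18.11 (without library 3) to 35.79 with a library left out. Genes past 10-fold numbered 348 with 1 CPM added, against 118. Genes 4-fold apart between libraries, 745, numbered 391 at resolution 1.6, 397 with listed genes kept, 2431 with 1 CPM added, and 378 (without library 2) to 628 with a library left out. With 1000 UMIs per cell the gap in Cthrc1 between cells with and without Postn was 14.65 points in library 1 (18.79 at 3000) and 28.61 in library 3 (44.16). The highest Postn of a subcluster was 5865 CPM at resolution 0.3 and 6309 CPM at 0.8. Of the fibroblast-like levels of single members, 22 stayed within their counting interval and 113 moved, Postn between 624 and 2650 CPM. Why these values moved was not tested. Low counts limit what can be said of Ptn (4.454 CPM) and Sfrp2 (9.675 CPM) in fibroblast-like cells of library 2. Those cells were not shallow, at a median of 24694.5 UMIs. Depth limits what can be said of Thbs4 in cardiomyocytes, with a median of 1294 UMIs.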

Other observations

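Schwann cells, the glia of peripheral nerves, wrap axons. They were not named as a class in the clustering used for the report. Under settings that did separate them, they held Postn and Ptn and little of the other 7 genes. With 20 principal components 176 Schwann-like cells from libraries 1, 2 and 3 (74, 50 and 52 cells) held 1548 CPM of Postn (1483 to 1615) and 674.3 CPM of Ptn (631.9 to 718.9). In these cells Sfrp1 stood at 79.63 CPM, Cthrc1 at 53.8 CPM, Mfap4 at 17.93 CPM, Cilp at 11.48 CPM, Sfrp2 at 7.174 CPM, Thbs4 at 5.739 CPM and Comp at 3.587 CPM. At a resolution of 1.6, 99 Schwann-like cells from libraries 1 and 3 held 2580 CPM of Postn and 1165 CPM of Ptn. Postn had a UMI in 92.93% of them and Ptn in 90.91%. Dcn stood at 155.5 CPM in the same cells, far under its fibroblast-like level in any library.

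Thbs4 was also found in 148 cells that formed a cluster without a name, nearly all from library 4 (146 cells), led by Acta1, Ankrd1 and Cryab, genes of stressed heart muscle. The cluster held 5 of 8 cardiomyocyte markers. It stayed unnamed because its depth was low and none of these markers was among its leading genes. Thbs4 stood there at 163.8 CPM, while Postn stood at 9.358 CPM, and the median depth was 773.5 UMIs per cell, so that the value rests on few UMIs. In fibroblast-like cells of the same library Thbs4 stood at 41.12 CPM.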
